A study of Rattus norvegicus with 4 samples.

Results

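The genes described here carry glucose to pyruvate, pyruvate to lactate, and pyruvate into the mitochondrial pyruvate dehydrogenase complex. They were chosen as a fixed list of 36 rat genes, and probes were matched to them through the RefSeq accession in the array annotation. Of the 36, 34 had a named probe (41 probes, 7 genes with 2 probes and 27 with 1) and 31 could be tested, out of 25368 genes tested on the array. Of these 25368, 6326 had a gene symbol, and the others were counted by their name in the array annotation. A gene may thus be counted more than once among all genes, and shares of all genes rest on this mix. Pfkp and Pdk3 had no probe named here. All 31 tested genes were well above background on all 4 arrays. Pklr, Ldhc and Pdk4 were well above background on none.

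The RNA was from PC12, a rat cell line that began as a pheochromocytoma, a tumour of the adrenal medulla that makes catecholamines. The MAX vector group was a PC12 line transfected with an expression plasmid that codes for MAX, and the empty vector group was a PC12 line transfected with the vector alone. Both lines went through drug selection after nucleofection and grew in F-12K medium with fetal calf and horse serum, per the labels. RNA of each line was taken at passages 8 and 13 and put on 2 one-colour Agilent arrays. A group is thus 1 line, and p-values measure the spread between its passages, not between transfections. The labels do not say which replicate is which passage.

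In glycolysis, hexokinases trap glucose as its phosphate, phosphofructokinase commits it to breakdown, aldolase splits the sugar, and the later enzymes oxidise the fragments to pyruvate with a gain of ATP. Lactate dehydrogenase turns pyruvate into lactate, which monocarboxylate transporters carry across the membrane, while pyruvate dehydrogenase feeds pyruvate into the citric acid cycle and is switched off by its kinases. Many of these genes are known targets of MYC, which binds the E-box sequence CACGTG together with MAX, and of the hypoxia-inducible factors (HIFs), which bind the core sequence ACGTG or its variant, written GCGTG. PC12 cells are known to lack functional MAX, and HIF signalling is a known theme of pheochromocytoma.

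The share of probes well above background ran from 64.47% (MAX vector replicate 1) to 71.6% (empty vector replicate 1), and no array had a saturated spot. Across probes, Pearson's r was 0.9887 for the MAX vector pair, 0.9905 for the empty vector pair and 0.9839 to 0.9882 for arrays of different groups. The Max probe was well above background on 0 of the 4 arrays, at -7.61 and -7.94 in the MAX vector group and -8.36 and -8.07 in the empty vector group (log2 signal relative to each array's 75th percentile). Its position relative to the insert of the plasmid was not analysed, so this probe is no check of the labels. MAX vector replicate 1 was alone on slide 2 and had its own scan date, while the other 3 arrays shared slide 1. Slide, scan date and replicate thus cannot be told apart within the MAX vector group. Of 11 chromaffin marker genes with a probe, 9 were well above background on all 4 arrays, and the catecholamine enzyme gene Th rose (log2 fold change 2.15, adjusted p = 0.0203 in limma) while Ddc fell by 1.08 (adjusted p = 0.0395).

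No glycolytic gene passed the test between the lines. Of the 31 tested, 0 passed an adjusted p of 0.05 in limma, where 0.836% of all genes passed (212 of 25368, with 0.572% higher and 0.264% lower). The brain-type aldolase gene Aldoc stood highest, 1.85-fold higher with MAX (0.89 ± 0.12 on the log2 scale, where ± is the SE and n = 2 arrays in each group, adjusted p = 0.0926). An unadjusted p under 0.05 was found for 9 of the 31 (29.0%) and for 16.1% of all genes. Of these, 7 were higher (Aldoc, Tpi1, Eno2, Slc2a1, Ldha, Pdk1 and Ldhb), where 7.92% of all genes were, and 2 were lower (Pfkfb3 and Pfkfb4), where 8.20% of all genes were. These 7 and 2 genes are 22.6% and 6.45% of the 31. A fold change above 0 was found for 21 of the 31 and for 46.5% of all genes, and the median log2 fold change was 0.11 against -0.02 over all genes. Since the genes were chosen with earlier results in view, no test was made of these shares.

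The groups did not overlap for 21 of the 31 genes (67.7%), where 50.2% of all genes were apart. Both MAX vector arrays lay above both empty vector arrays for 13 of the 31 genes (41.9%), where 24.2% of all genes did, and below them for 8 (25.8%), where 26.0% of all genes did. The 95% interval of the fold change lay within 2-fold in either direction for 30 of the 31 genes (96.8%), where 82.5% of all genes had so narrow an interval. Among those 30 the intervals reached from -0.71 (Pfkfb3) to 0.76 (Tpi1) on the log2 scale. Only for Aldoc did the interval (0.54 to 1.24) include a 2-fold rise.

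**Figure D1:**
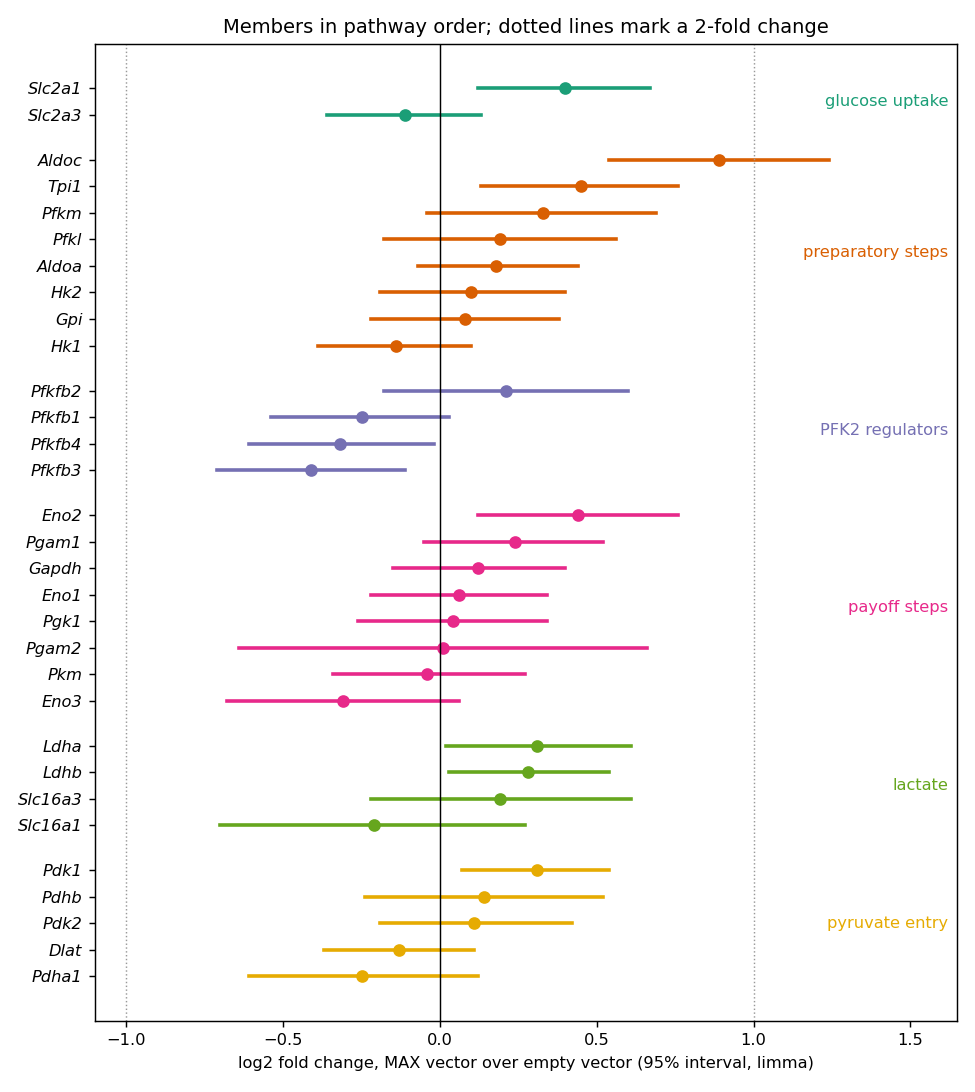
Log2 fold change (x axis, MAX vector over empty vector) of the 31 tested genes, grouped by step of the pathway, with points for limma estimates, lines for 95% intervals (n = 2 arrays per group) and dotted lines at a 2-fold change. Aldoc at 0.89 is the highest and Pfkfb3 at -0.41 the lowest, and 22 of the 31 intervals include 0.

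Promoters of 4 of the genes are shown because Aldoc and Pfkfb3 stood at the ends of the range of fold changes, and Ldha, Pfkfb3 and Pdhb carry an E-box. Each line gives the 250 bases before the RefSeq gene start (build GRCr8), 5′ to 3′ along the gene, with capitals marking the E-box and both HIF core sequences on either strand. The E-box contains the core ACGTG on both strands, so every E-box counts as a match to ACGTG as well.
Aldoc, chr10:63715294-63715543, plus strand: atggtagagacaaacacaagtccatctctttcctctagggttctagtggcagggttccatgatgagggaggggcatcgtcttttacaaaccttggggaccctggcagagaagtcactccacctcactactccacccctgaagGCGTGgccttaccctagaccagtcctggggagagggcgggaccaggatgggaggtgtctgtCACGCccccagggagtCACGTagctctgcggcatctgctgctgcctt
Ldha, chr1:106507842-106508091, plus strand: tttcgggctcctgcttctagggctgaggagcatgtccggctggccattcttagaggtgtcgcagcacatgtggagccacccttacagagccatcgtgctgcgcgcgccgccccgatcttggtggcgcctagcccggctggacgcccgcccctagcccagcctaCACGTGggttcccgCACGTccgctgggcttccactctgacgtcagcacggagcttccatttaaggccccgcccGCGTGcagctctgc
Pfkfb3, chr17:71944683-71944932, plus strand: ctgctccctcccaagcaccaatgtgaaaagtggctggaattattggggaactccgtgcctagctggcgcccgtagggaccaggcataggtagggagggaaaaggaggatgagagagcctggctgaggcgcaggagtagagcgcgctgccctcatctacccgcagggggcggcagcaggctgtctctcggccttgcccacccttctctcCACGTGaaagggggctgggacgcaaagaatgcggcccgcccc
Pdhb, chr15:19182539-19182788, plus strand: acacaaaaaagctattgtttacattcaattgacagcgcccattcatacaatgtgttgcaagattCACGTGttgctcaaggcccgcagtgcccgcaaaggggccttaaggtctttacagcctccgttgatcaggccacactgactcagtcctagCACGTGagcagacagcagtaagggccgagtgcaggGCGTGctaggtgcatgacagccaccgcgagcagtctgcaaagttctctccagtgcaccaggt

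The Aldoc promoter held GCGTG cores that start 108 and 47 bases before the gene start and an ACGTG core 31 bases before it, with no E-box in the window. Ldha, which encodes the muscle-type lactate dehydrogenase subunit, had an E-box 87 bases before its start, and Pfkfb3 had one at 42 bases. Pdhb, a pyruvate dehydrogenase E1 subunit gene, had a pair of E-boxes at 186 and 97 bases. In windows of 300 bases (250 before and 50 after the start), 34 of the 36 genes matched the RefSeq table, with 38 windows. An E-box was found in 5 of the 38 (13.2%) and in 6.42% of all 33469 windows, ACGTG in 18 (47.4%) and 19.3%, and GCGTG in 17 (44.7%) and 29.7%. A match is a description of these letters and not a site of binding.

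The 5 genes with an E-box were Ldha, Pdhb, Pdk2, Slc16a1 and Pfkfb3. Their log2 fold changes were 0.31, 0.14, 0.11, -0.21 and -0.41, so they lay on both sides of 0. Their median was 0.11, and that of the 24 tested genes whose windows lacked an E-box was 0.15. For the HIF cores the medians were 0.14 with and 0.06 without ACGTG, 0.19 with and 0.09 without GCGTG, and 0.16 with and 0.01 without either core. A fold change above 0 was found for 15 of 20 genes with either core and 5 of 9 without. No test was made of these splits.

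Glucose enters through facilitative transporters. Slc2a1, which encodes the widely expressed transporter GLUT1, had log2 signals of 2.64 and 2.51 on the MAX vector arrays and 2.21 and 2.15 on the empty vector arrays, relative to each array's 75th percentile. The groups did not overlap, and the difference corresponded to 1.32-fold (log2 fold change 0.40 ± 0.10, 95% interval 0.12 to 0.67, adjusted p = 0.205). On slide 1 alone the log2 fold change was 0.33. Slc2a3, which encodes the neuronal transporter GLUT3, was dim, at -3.64 and -3.67 with MAX and -3.57 and -3.51 with the empty vector, and had a log2 fold change of -0.11 ± 0.09.

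Among the hexokinases, Hk1 encodes the housekeeping form and Hk2 an insulin- and hypoxia-responsive one. Hk1 lay at 2.91 and 2.96 in MAX vector cells and 3.11 and 3.05 in empty vector cells (log2 fold change -0.14 ± 0.09, adjusted p = 0.507). A further Hk1 probe gave 0.02, with overlapping groups. Hk2 was dim and overlapped between the groups, at -3.43 and -3.25 with MAX and -3.48 and -3.41 without (0.10 ± 0.11).

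Gpi, the glucose phosphate isomerase gene, overlapped between the groups (log2 fold change 0.08 ± 0.11). Of the phosphofructokinase subunit genes, the muscle-type Pfkm had signals of 2.91 and 2.74 with MAX against 2.38 and 2.61 with the empty vector. Its log2 fold change was 0.33 ± 0.13 with an interval of -0.04 to 0.69 (adjusted p = 0.347). The liver-type Pfkl had 0.19 ± 0.13, and its MAX vector arrays, at -0.35 and -0.36, stood above the empty vector arrays at -0.69 and -0.40. Without empty vector replicate 1 it was 0.05.

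Aldolase has a ubiquitous form, Aldoa, and a form first known from brain, Aldoc. Aldoc had log2 signals of -0.67 and -0.72 in MAX vector cells, against -1.71 and -1.46 in empty vector cells. In processed signal units these are 370.1 and 404.5 with MAX and 213.7 and 222.2 with the empty vector. The MAX vector arrays differed from each other by 0.05 and the empty vector arrays by 0.25, both less than the 0.89 between the groups. Of all genes tested, 4.36% had a larger absolute change. The unadjusted p was 0.00211 and the 95% interval 0.54 to 1.24. With normexp, a model-based background correction run with an offset of 50 units, Aldoc had 0.66 and passed (adjusted p = 0.00883). It also passed when limma's variance was allowed to depend on intensity (adjusted p = 0.0176) and when only probes above background on all 4 arrays were tested (adjusted p = 0.0464). On slide 1 alone, which holds 1 MAX vector array, the log2 fold change was 0.87 (adjusted p = 0.193, with the lone array assumed to vary like the empty vector arrays). Over all 18 alternatives its adjusted p in limma ran from 0.00883 to 0.451.

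Aldoa had signals of 5.74 and 5.67 with MAX and 5.48 and 5.55 with the empty vector (log2 fold change 0.18 ± 0.09, adjusted p = 0.42). The difference between the Aldoc and Aldoa signals was 0.71 higher with MAX on the log2 scale, and it did not overlap between the groups. The exact two-sided permutation p was 0.333, the smallest that 2 against 2 arrays allow. Of 6 such pairs of related genes, the others with groups that did not overlap were Hk2 minus Hk1 (0.24 higher), Eno2 minus Eno1 (0.38 higher), Slc16a3 minus Slc16a1 (0.41 higher) and Slc2a3 minus Slc2a1 (-0.51), each with the same exact permutation p of 0.333 and 0.4 after adjustment over the 6 pairs. Ldhb minus Ldha had -0.03 with overlapping groups. Of all genes taken singly, 50.2% were apart. For Slc16a3 minus Slc16a1 the groups were barely apart, at 5.32 on MAX vector replicate 2 and 5.26 on empty vector replicate 2. Each of these 2 genes overlapped when taken singly.

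Tpi1, which encodes triosephosphate isomerase, had signals of 3.0 and 2.80 in MAX vector cells and 2.50 and 2.42 in empty vector cells. The groups were apart by 1.36-fold (0.45 ± 0.11, interval 0.13 to 0.76, adjusted p = 0.213). MAX vector replicate 1 was the higher of its pair, and slide 1 alone gave 0.35.

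**Figure D2:**
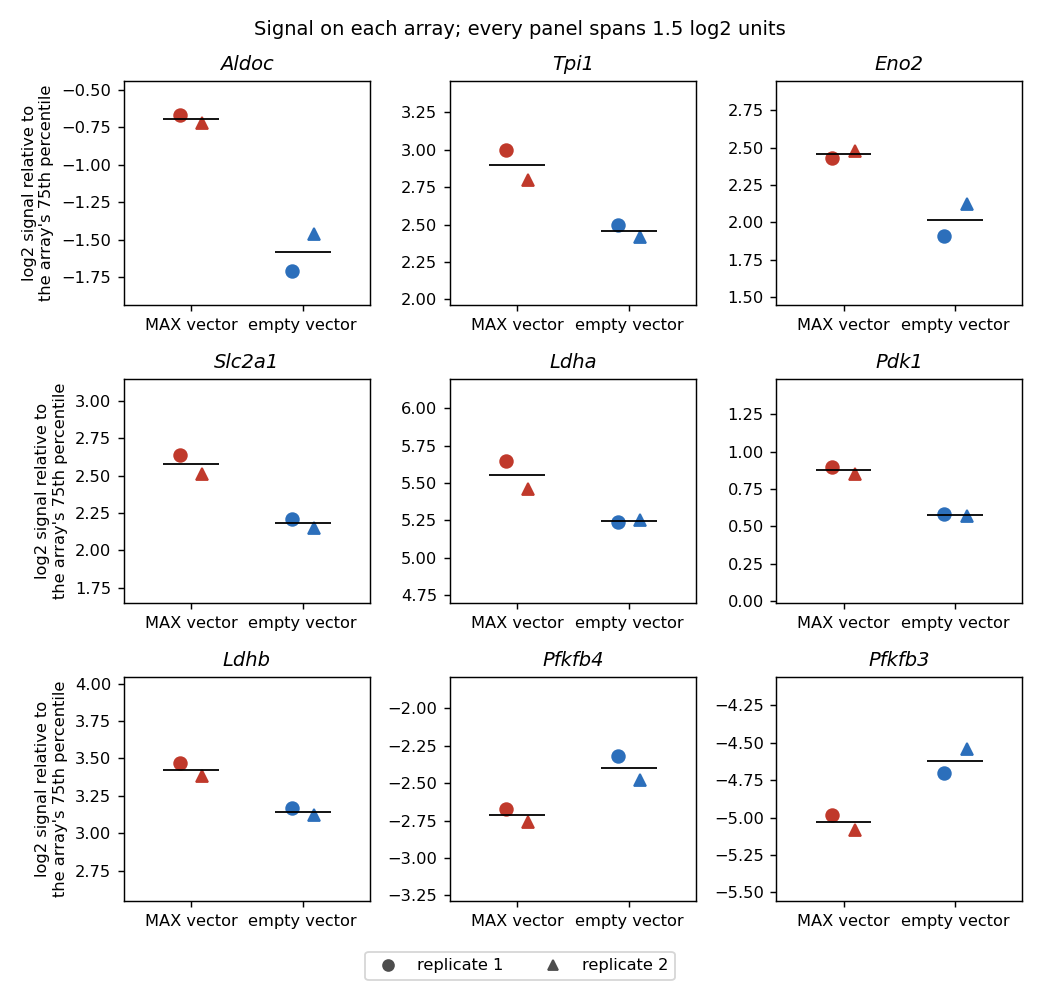
Log2 signal relative to the array's 75th percentile (y axis) in MAX vector and empty vector cells for the 9 genes with an unadjusted p under 0.05, with circles for replicate 1, triangles for replicate 2 and lines for group means. In every panel the groups do not overlap: the MAX vector arrays are higher for 7 genes and lower for Pfkfb4 and Pfkfb3.

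The PFKFB enzymes make and break fructose 2,6-bisphosphate, the main activator of phosphofructokinase. Of the 4 genes, 3 had negative fold changes with groups that did not overlap, where 26.0% of all genes were apart and lower. Pfkfb3, the inducible form with high kinase activity, had -4.98 and -5.08 with MAX and -4.70 and -4.54 with the empty vector, which is 24.8% lower (log2 fold change -0.41 ± 0.11, adjusted p = 0.218). This probe was dim, at 18.7 and 19.7 signal units with MAX and 27.0 and 26.3 without, and with normexp the log2 fold change was -0.09.

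Pfkfb4, another hypoxia-responsive form, had signals of -2.67 and -2.76 in MAX vector cells and -2.32 and -2.48 in empty vector cells (-0.32 ± 0.11, adjusted p = 0.288). Pfkfb1, the form of liver and muscle, lay at -0.31 and -0.43 with MAX against -0.06 and -0.17 without (-0.25 ± 0.10, adjusted p = 0.35). The heart form Pfkfb2 had 0.21 ± 0.14 by its brighter probe and -0.08 by its dimmer one, where the groups overlapped. The medians were of opposite sign, 0.19 for the 8 tested genes of the preparatory steps and -0.29 for the 4 regulators, with 0 called in either group and no test of the difference.

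The payoff steps hold the brightest probes, and the fold changes of their main genes were small. Gapdh, the dehydrogenase that yields NADH, had signals of 7.41 and 7.27 with MAX and 7.21 and 7.23 without (log2 fold change 0.12 ± 0.10, adjusted p = 0.59). Pgk1, the kinase of the ATP-forming step that follows, overlapped between the groups (0.04 ± 0.11), as did the ubiquitous enolase gene Eno1 (0.06 ± 0.10) and the pyruvate kinase gene Pkm (-0.04 ± 0.11). The 95% intervals of Pgk1, Eno1 and Pkm ran from -0.26 to 0.34, from -0.22 to 0.34 and from -0.34 to 0.27. Pgam1, a phosphoglycerate mutase gene, had 8.16 and 8.03 with MAX and 7.81 and 7.91 with the empty vector (0.24 ± 0.10, adjusted p = 0.375).

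Of the tissue-specific forms, the neuronal enolase gene Eno2 had signals of 2.43 and 2.48 in MAX vector cells and 1.91 and 2.12 in empty vector cells, 1.36-fold apart (0.44 ± 0.11, interval 0.12 to 0.76, adjusted p = 0.216). On slide 1 alone it had 0.46. The muscle enolase gene Eno3 went the other way, with 3.14 and 3.04 with MAX against 3.54 and 3.27 without (-0.31 ± 0.13, adjusted p = 0.368). The muscle mutase gene Pgam2 lay at -4.59 and -3.99 with MAX and -4.35 and -4.25 without, so its MAX vector arrays lay on either side of the empty vector arrays (0.01 ± 0.23). Pklr, the liver and red cell pyruvate kinase gene, was not well above background, at -7.85 and -8.28 with MAX and -8.66 and -8.35 without.

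RefSeq names 196 pseudogenes after 10 of the 36 genes, among them 81 for Gapdh, 31 for Eno1, 30 for Ldha, 19 for Pkm and 13 for Pgam1. Signal from near-identical copies cannot be told apart from the gene's own here. Of the 7 genes with 2 probes, the dimmer probe moved further in the same direction for 5. For Gapdh the dimmer probe gave 0.30 where the brighter gave 0.12, for Pgam1 0.38 and 0.24, for Eno1 0.14 and 0.06, for Gpi 0.12 and 0.08, and for Dlat -0.24 and -0.13. The probe used throughout was the brighter one, so the choice of probe bears on the size of these small differences.

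Both main lactate dehydrogenase genes were higher on the MAX vector arrays. Ldha had 5.65 and 5.46 with MAX and 5.24 and 5.25 with the empty vector (1.24-fold, log2 fold change 0.31 ± 0.11, interval 0.02 to 0.61, adjusted p = 0.293). Ldhb, the heart-type subunit, had 3.47 and 3.38 with MAX and 3.17 and 3.12 without (1.22-fold, 0.28 ± 0.09, adjusted p = 0.276). The groups did not overlap for either gene, and slide 1 alone gave 0.22 and 0.24. The testis gene Ldhc was not well above background on any array, with signals of -6.79 and -6.49 with MAX and -6.39 and -6.60 without.

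Lactate leaves and enters cells through monocarboxylate transporters. Slc16a3, which encodes the exporter MCT4, had 5.51 and 5.17 with MAX and 5.18 and 5.11 with the empty vector, so the groups overlapped (0.19 ± 0.15, adjusted p = 0.574). Without MAX vector replicate 1 its log2 fold change was 0.03. Slc16a1, which encodes MCT1, read -0.15 on both MAX vector arrays and 0.28 and -0.15 on the empty vector arrays (-0.21 ± 0.17). Its difference rested on empty vector replicate 1, without which it was 0.00.

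Pyruvate entry is set by kinases that inactivate pyruvate dehydrogenase. Pdk1, the kinase known to be induced by HIF, had signals of 0.90 and 0.85 in MAX vector cells and 0.58 and 0.57 in empty vector cells. The groups did not overlap (1.24-fold, log2 fold change 0.31 ± 0.09, interval 0.07 to 0.54, adjusted p = 0.239). Pdk2, a widely expressed kinase gene, overlapped (0.11 ± 0.11). Pdk4, induced by fasting in other tissues, was not well above background on any array, at -7.82 and -7.95 with MAX and -8.44 and -8.07 without.

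The enzyme's own subunits showed no common direction. Pdha1, the E1 alpha subunit gene, had 2.50 and 2.75 with MAX and 2.94 and 2.81 with the empty vector (-0.25 ± 0.13, adjusted p = 0.447), and on slide 1 alone it had -0.12. Dlat, the E2 acetyltransferase gene, had 1.88 and 1.85 with MAX and 2.02 and 1.97 without (-0.13 ± 0.09, adjusted p = 0.529), and Pdhb overlapped between the groups (0.14 ± 0.14).

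**Figure D3:**
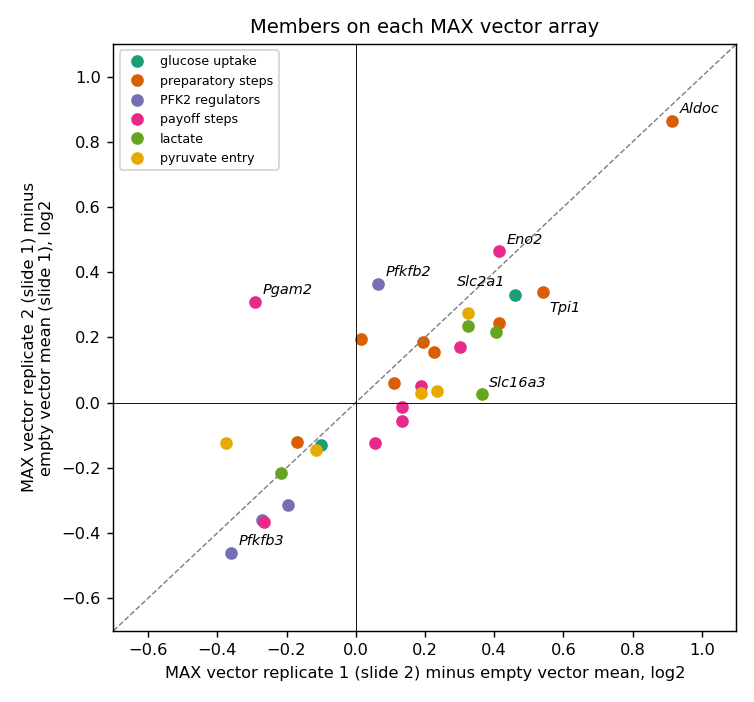
Each of the 31 genes by its difference from the empty vector mean on MAX vector replicate 1 (x axis, slide 2) and on MAX vector replicate 2 (y axis, slide 1), in log2 units, with the dashed line at equality and colours for the step of the pathway. Most points lie below the line (24 of 31), while Aldoc, Eno2 and Pfkfb3 lie close to it.

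The array on its own slide stood somewhat above its replicate for these genes. MAX vector replicate 1 exceeded replicate 2 for 24 of the 31 genes (77.4%), where it did for 47.8% of all genes. The genes' median difference from the empty vector mean was 0.14 on MAX vector replicate 1 and 0.05 on MAX vector replicate 2, where the medians of all genes were -0.03 and 0.01. On slide 1 alone, 19 of the 31 genes and 12997 of all 25368 were above the empty vector mean. The median there was 0.05 against 0.01 over all genes. Replicates of these genes differed by a median of 0.13 in the MAX vector group and 0.08 in the empty vector group, where those of all genes differed by 0.15 and 0.12.

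**Figure D4:**
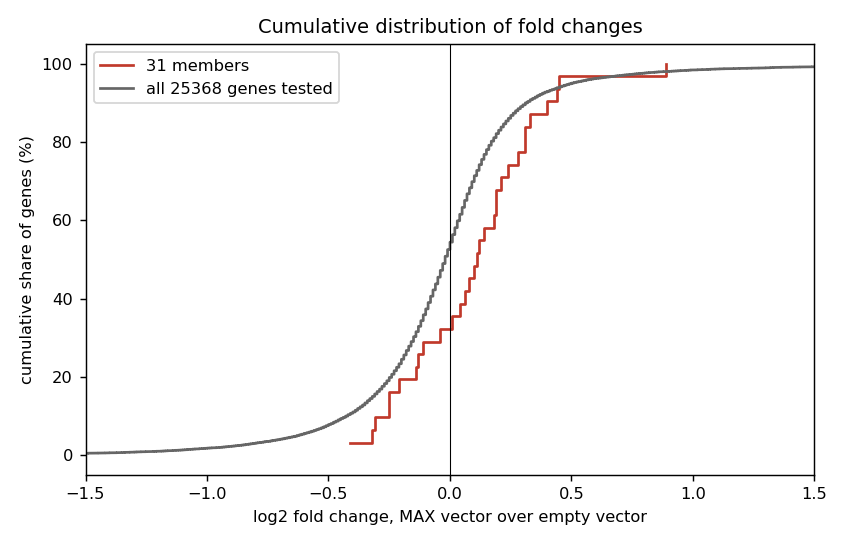
Cumulative share of genes (y axis, percent) by log2 fold change of MAX vector over empty vector (x axis) for the 31 genes and for all 25368 genes tested. The curve of the 31 genes lies to the right around 0, with a median of 0.11 against -0.02, and its upper end is Aldoc at 0.89; genes with larger changes run off the axis.

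Genes of the neighbouring pathways held 0 calls in limma, where 0.836% of all genes were called, so that lists of this size would hold few calls at that share. Of 5 other hexokinase and glucose transporter genes tested, the fructose transporter gene Slc2a5 stood lowest, at -0.61 ± 0.14 on the log2 scale (adjusted p = 0.189), and Slc2a8, an intracellular sugar transporter gene, had 0.31 ± 0.11. Hk3, another hexokinase gene, had 0.56 ± 0.21 but was dim, at -5.44 and -4.91 with MAX and -5.68 and -5.79 without. Bpgm and Gapdhs, the other glycolysis enzymes tested, had -0.01 ± 0.10 and 0.09 ± 0.25. The 4 tested pentose phosphate genes ran from Taldo1, the transaldolase gene, at -0.20 ± 0.09 to Tkt, the transketolase gene, at 0.11 ± 0.09, with Rpe at -0.15.

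Among 12 genes of glycogen and gluconeogenesis, 6 were above 0 and 6 below, with a median of -0.04. Ugp2, which makes the sugar donor for glycogen, was the member with the smallest p (-0.51 ± 0.10, adjusted p = 0.15), although G6pc1 (-0.72 ± 0.40) and Fbp2 (-0.57 ± 0.50) had larger negative values with wide errors, and Pygl (0.16) and Phkb (0.07) stood highest. Of 4 other monocarboxylate transport genes, Slc16a6 had -0.71 ± 0.12 (adjusted p = 0.12) and Slc16a10 0.09 ± 0.22. Bsg, which encodes the chaperone of MCT1 and MCT4, had 0.17 ± 0.12, and Emb, the related chaperone gene, had 0.12 ± 0.11. At an unadjusted p under 0.05 in limma, Slc16a6 was the only one of these transport genes, and Ugp2 the only one of the glycogen list. Both were lower, as were 8.20% of all genes at that threshold. The mitochondrial pyruvate carrier genes Mpc1 and Mpc2 had -0.22 ± 0.10 and 0.05 ± 0.11, within 6 further pyruvate dehydrogenase and carrier genes that also held Pdha2 (-0.13) and Pdp2 (0.09).

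The 19 tested genes on the list of the citric acid cycle and linked enzymes had a median of -0.01. None lay beyond -0.28 (Me1, a linked enzyme gene outside the cycle) or 0.25 (Idh2), with Ogdh at -0.27 and Sdha at 0.21. At an unadjusted p under 0.05, 1 was higher and 2 were lower, where 7.92% and 8.20% of all genes were. The 7 cytosolic NADH shuttle genes ran from -0.21 (Gpd2) and -0.09 (Slc25a10) to 0.03 (Got1) and 0.18 (Gpd1). Of 11 tested regulators of glycolysis, 2 were higher and 3 lower at an unadjusted p under 0.05, where 7.92% and 8.20% of all genes were, and the median was -0.11. Hif1a, which encodes HIF1 alpha, had 0.27 ± 0.09 (adjusted p = 0.277) and Txnip, which restrains glucose uptake, had 0.34 ± 0.12 (adjusted p = 0.298). Epas1, which encodes HIF2 alpha, had -0.81 ± 0.22 (adjusted p = 0.233) and Mycn -0.48 ± 0.16 (adjusted p = 0.299). Mycn was dim, at -4.1 and -4.44 with MAX and -3.89 and -3.69 without. Epas1 lay at -2.76 and -3.25 with MAX and -2.04 and -2.36 without.

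Of the markers of other cell types, 1 gene passed the test. All 8 epithelial marker genes were well above background on all 4 arrays and had positive fold changes (median log2 fold change 0.79). The groups were apart and higher for 7 of them, where 24.2% of all genes were. The keratin gene Krt19 was the one that passed (log2 fold change 3.19, adjusted p = 0.0263 in limma). The summed epithelial signal, in multiples of the 75th percentile, was 20.5 and 19.8 with MAX and 11 and 12 with the empty vector. Summed macrophage markers gave 9.09 and 8.83 with MAX against 4.86 and 5.60 without, a sum that is mostly Cd14, with Aif1 not well above background. The groups were apart and higher for Lyz2 (1.32) and Cd14 (0.82), where 24.2% of all genes were, and overlapped for Cd68 (0.43) and Csf1r (0.06). Fibroblast markers, led by the collagen gene Col3a1, gave 142 and 152 with MAX and 138 and 153 without, a sum that is mostly Col3a1. The 6 fibroblast genes had a median log2 fold change of -0.37, with 0 called. The groups were apart and lower for Lum (-1.19), Thy1 (-0.62), Pdgfrb (-0.58) and Col1a2 (-0.16), where 26.0% of all genes were. They were apart and higher for Dcn (0.75), where 24.2% of all genes were. Of 5 endothelial markers 2 had a probe, and their sum was 0.0762 and 0.11 with MAX and 0.0265 and 0.028 without. That sum is mostly Kdr, which was dim, with Pecam1 not well above background. Chromaffin markers gave 11.7 and 11.6 with MAX and 20.3 and 20.4 without, a sum that is mostly Ddc, while Th rose 4.42-fold. Fewer cells of a type and less RNA per cell cannot be told apart in these bulk samples, and the part of these markers in the glycolytic differences was not tested.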

How the data were processed

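The authors deposited scanner output with an intensity for each spot of 4 Agilent arrays. The software was Feature Extraction 10.7.3.1 per the file headers and 10.7 per the submitters' processing notes, with rn4 annotation. Its processed signal had the background subtracted and a spatial trend removed, with no scaling between arrays. The deposited value table holds log2 values, whose differences between columns matched the scanner files (Pearson r = 1.0 across probes). Each probe's baseline in it stays unknown, and its column medians lay between -0.033 and -0.005.

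Spots with an outlier flag (89 to 140 an array) and 89 probes that lost all their spots on an array were dropped. Log2 signals were averaged per probe, and each array's 75th percentile over probes (590.0 to 700.5 units) was subtracted. Probes well above background on at least 2 arrays were kept, with the brightest probe per gene. Of 40923 probes, 10746 were named through RefSeq accessions (GRCr8 table). Fits used limma 3.58.1 in R 4.3.3 (lmFit, eBayes, 3.94 total degrees of freedom) over all 25368 genes with Benjamini-Hochberg adjustment, threshold 0.05, and ± gives the SE on the log2 scale. The steps were tested on simulated data. Array number limits precision.

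All 36 genes were named where measured, with up to 2 genes at each end of the neighbouring lists. Some genes that this rule names are not reported here. Genes and lists were chosen with earlier results of these data known. Alternatives covered background correction, scaling, filters, probe choice, variance model, slide, replicate block and left-out arrays. The files give a median and no mean spot signal, so normexp used the median.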

Additional observations from a re-analysis of the deposited data

How the results depend on the processing

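Of 18 alternatives, 16 were planned (the slide as a block, slide 1 alone and leaving out MAX vector replicate 1 are 1 and the same fit, since that array is alone on its slide), and normexp on the median signal and the percentile over spots were chosen after the data were seen. Normexp on the mean signal, as planned, was not run. Of the 31 genes, 25 kept their direction under all 18. The count of genes called over all genes moved most: against 212, limma called 795 with normexp, 542 with median scaling, 516 with probes above background on all 4 arrays and 954 with an intensity trend, but 8 with the slide as a block or on slide 1 alone, and 0 with no filter on dim probes (4033 at an unadjusted p under 0.05). Leaving out 1 array gave 0 to 144, with 0 without empty vector replicate 1 (1964 at an unadjusted p under 0.05) or 2 (2457) and 8 without MAX vector replicate 1. Among the 31 genes the count was 1, Aldoc, with normexp, with probes above background on all 4 arrays and with the intensity trend, and 0 otherwise, also with any 1 array left out. The adjusted p of Aldoc ran from 0.00883 to 0.451 and its log2 fold change from 0.66 to 1.02. The genes' median ran from 0.05 to 0.14. Relative to the median of all genes it was 0.13, also with no scaling, where all genes shifted to -0.08, but 0.05 on slide 1 alone and 0.08 without empty vector replicate 1.

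With the replicate number as a block, limma called none of all genes (count 0, and 3887 with an unadjusted p under 0.05) and 0 of the 31, with a median of 0.11. The deviations of same-numbered arrays did not go together (r = -0.0177 across 25368 genes). With 2 arrays per group this is 1 comparison, and MAX vector replicate 1 was also alone on its slide. It therefore cannot decide whether the samples pair by passage.

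Reversals touched 6 genes, 5 of them with main fold changes of at most 0.08 in size and Slc16a1 at -0.21, and 1 pair. Pgk1 had -0.02 with no scaling and -0.06 with the slide as a block or on slide 1 alone. Eno1 had -0.08 with normexp, 0.00 with no scaling and -0.02 with the slide as a block or on slide 1 alone. Pgam2 had -0.01 with the percentile over spots and -0.05 with no scaling. Ldhb minus Ldha had 0.02 with the slide as a block or on slide 1 alone. With 1 array left out, the values ran from -0.01 to 0.17 for Gpi, -0.06 to 0.14 for Pgk1, -0.29 to 0.31 for Pgam2, -0.02 to 0.14 for Eno1, -0.13 to 0.06 for Pkm, -0.43 to 0.00 for Slc16a1 and, for Ldhb minus Ldha, -0.08 to 0.02. With no scaling all genes shift alike, so genes near 0 change sign by construction. The cause of the other reversals was not tested. Without 1 array, Hk2, Pfkl, Pfkfb2, Gapdh, Slc16a3, Pdk2 and Pdhb came down to between 0.02 and 0.06.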
